A study of Mus musculus with 7 samples.

Results

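The unfolded protein response genes described here are 10 genes of the stress response of the endoplasmic reticulum (ER): the sensors Ern1, Ern2 and Atf6, the transcription factors Xbp1, Atf4 and Ddit3, the folding factors Hspa5, Pdia4 and Dnajb9, and Herpud1 of ER-associated degradation. They were chosen by symbol as sensors, chaperones and effectors of that response, and all 10 of 10 were found among the 46671 genes of the deposited table. The samples were epithelium of BALB/C mice aged 8 weeks and kept free of specific pathogens. In 4 libraries (cKO) Stk24, which encodes the kinase MST3, had been knocked out in intestinal epithelial cells, and 3 libraries from mice of WT genotype (Ctrl) were the control. Driver and allele of the deletion: not given in the sources used here. For both groups the treatment label states that no drug was used, whereas the design text of the series speaks of AOM and DSS, a carcinogen and a colitis-inducing agent; the values do not settle which holds. Separate animals are nowhere stated for the libraries, so p-values measure the spread between libraries, which may be technical.

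The unfolded protein response adjusts the folding capacity of the ER to the load of secreted and membrane proteins. IRE1, encoded by Ern1 and, in mucus-secreting epithelia, by its paralog Ern2, splices the Xbp1 mRNA; ATF6 is cut in the Golgi to release a transcription factor; and PERK, encoded by Eif2ak3, phosphorylates eIF2, which favours translation of ATF4. These steps act on proteins and on splicing, so gene-level mRNA values do not measure them. What can be read here are the mRNA levels of the sensors and of the genes that the branches are known to induce. In the gut the response is known above all from goblet and Paneth cells, which secrete mucins and antimicrobial proteins.

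Promoter sequences are shown for Hspa5, Herpud1 and Dnajb9, the genes whose library-to-library variation is described further on. RefSeq promoters on the GRCm38.p6 build were matched for 8 of the 10 genes, all but Ern2 and Atf6. Each line gives the 160 bases just before the annotated start site, 5′ to 3′ on the strand of the gene, with capitals for the fixed letters of an ER stress element; Dnajb9 has no such match and no capitals.
Hspa5, chr2:34771930-34772089, plus strand: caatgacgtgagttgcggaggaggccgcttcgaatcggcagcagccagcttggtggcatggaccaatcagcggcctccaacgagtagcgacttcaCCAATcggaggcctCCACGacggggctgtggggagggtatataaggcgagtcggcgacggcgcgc
Herpud1, chr8:94386269-94386428, plus strand: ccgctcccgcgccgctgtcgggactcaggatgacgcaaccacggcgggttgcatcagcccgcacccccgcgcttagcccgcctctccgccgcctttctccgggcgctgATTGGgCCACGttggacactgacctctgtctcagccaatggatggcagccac
Dnajb9, chr12:44210069-44210228, minus strand: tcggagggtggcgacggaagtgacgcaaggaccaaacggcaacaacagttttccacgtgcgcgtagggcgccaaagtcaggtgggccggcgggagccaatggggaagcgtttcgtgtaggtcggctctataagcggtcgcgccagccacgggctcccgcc
The ER stress element was searched as CCAAT, 9 bases of any kind and CCACG, on both strands, in the 250 bases before each start site. It was found in Hspa5, from 65 to 47 bases before the start, and in 0.113% of 32851 RefSeq promoters. The ER stress element II, searched as ATTGG, 1 base of any kind and CCACG, was found in Herpud1, from 52 to 42 bases before the start, and in 0.0304% of promoters. It overlaps by its letters with the CCACG core, which alone was present in 28.3% of promoters, and in those of Atf4, Dnajb9, Ern1, Herpud1 and Hspa5. The UPR element TGACGTGG was found in none of the 8 promoters and in 0.563% of all. Dnajb9 held the core and a CCAAT box, which 33.8% of promoters hold, without the exact spacing. These matches describe letters and show no binding.

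Per library, 14659708 to 19659622 reads had been assigned to genes, as recovered from the deposited FPKM, which scale reads by gene length and library depth. Stk24 was lower in every cKO library, between 2.92 and 3.85 FPKM, than in every Ctrl library, between 19.4 and 21.0 FPKM (log2 difference -2.42, SE 0.12, limma adjusted p = 0.00043), as the labels require. The tissue is labelled colorectum. The colon marker Car1 stood at no more than 0.0705 FPKM, and 7 of 14 listed colon genes averaged at least 0.5 FPKM. These 7 included Ang4 at 785 FPKM, also listed as a Paneth cell marker, B4galnt2 at 152 and Slc26a3 at 40.9 FPKM. All 14 listed small intestinal genes averaged at least 0.5 FPKM, though Slc10a2 at 0.936 and Fabp6 at 1.95 FPKM were low. Fabp2 and Apoa4 averaged 5747 and 7376 FPKM, and the Paneth cell defensin Defa24 averaged 7473 FPKM. Paneth cell markers varied widely between libraries: the sum of 11 of them was 7322 and 7163 FPKM in cKO replicates 3 and 4 and between 13942 and 37312 FPKM in the other 5 libraries. Those 2 libraries also held the largest shares of mitochondrially encoded reads, 7.39% and 7.51%, against 3.71% to 5.32% elsewhere.

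The 10 genes spanned a wide range of levels, with Ddit3 and the 3 sensors at the low end (plot of the 10 genes by library). Hspa5 was the most abundant, at a mean of 164 FPKM over the 7 libraries, followed by Atf4 at 113, Herpud1 at 102, Xbp1 at 102, Pdia4 at 33.9, Dnajb9 at 33.6, Ddit3 at 7.97, Atf6 at 6.39, Ern1 at 5.81 and Ern2 at 4.69 FPKM. Of the 9 neighbouring pairs in this order, Hspa5 above Atf4, Xbp1 above Pdia4 and Dnajb9 above Ddit3 held in all 7 libraries. Herpud1 exceeded Xbp1 in 3 libraries, Pdia4 exceeded Dnajb9 in 4, Atf4 exceeded Herpud1 and Ern1 exceeded Ern2 in 5, and Ddit3 exceeded Atf6 and Atf6 exceeded Ern1 in 6, so these neighbours did not differ beyond their spread. On GRCm39, the whole genes, exons and introns, lie at chr11:5470641-5475993 (Xbp1), chr2:34662102-34666541 (Hspa5), chr11:106285474-106378701 (Ern1), chr7:121769116-121785454 (Ern2), chr15:80139385-80141746 (Atf4), chr1:170532026-170696414 (Atf6), chr10:127126662-127132160 (Ddit3), chr12:44252680-44256851 (Dnajb9), chr8:95113057-95121999 (Herpud1) and chr6:47773075-47790446 (Pdia4). Between 104 and 9065 reads supported each value, the fewest for Ern2 in cKO replicate 3.

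**Figure D1:**
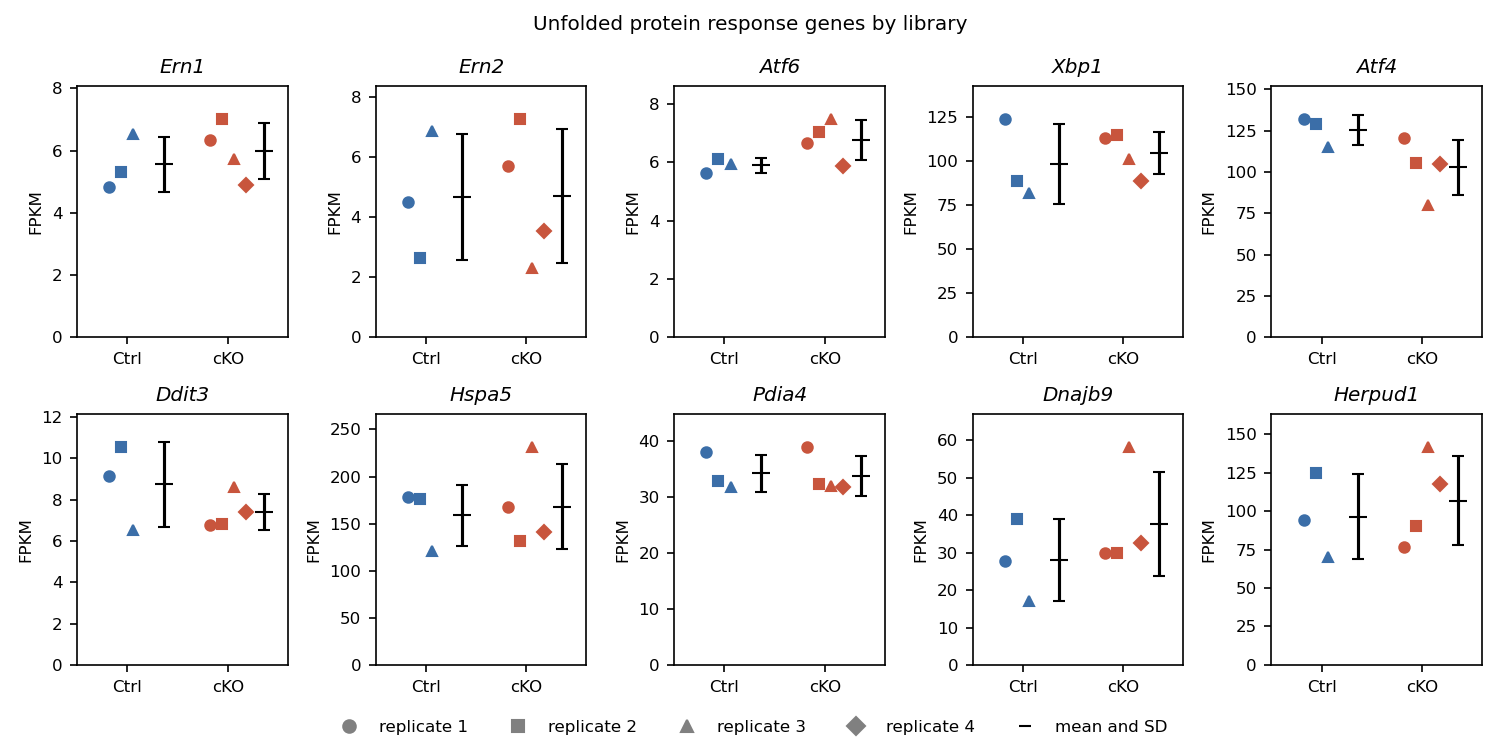
FPKM of each gene (vertical axes, starting at 0) in Ctrl and cKO libraries, with the mean and SD of each group in black and the replicate number as the symbol. The groups overlap for all 10 genes, and cKO replicate 3 (red triangle) is highest for Hspa5, Dnajb9, Herpud1 and Atf6 and lowest for Ern2 and Atf4.

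No unfolded protein response gene differed between the genotypes beyond the spread of the libraries. In limma 0 of the 10 passed at an adjusted p of 0.05, and 0 had an unadjusted p under 0.05, where 0.0306% and 8.97% of the 13057 genes tested did (4.24% higher in cKO and 4.73% lower). The libraries of the groups overlapped for all 10, and 10.1% of genes tested showed no overlap (5.62% higher in cKO and 4.51% lower). Among 10 genes, counts of 0 lie close to these shares and do not set the 10 apart from other genes. All 10 genes passed the filter of a mean of 0.5 FPKM. The log2 difference (cKO minus Ctrl, on the scale log2(FPKM + 0.5)) was above 0 for 6 and below 0 for 4, with a median of 0.084 against -0.0077 over all genes tested. The median was -0.038 without Ctrl replicate 3, without a change in the call of any of the 10. Rescaling to a common FPKM sum shifted the median of all genes to 0.070; Ern2 at 0.067 and Pdia4 at 0.065 then lay above 0 but still just below that median.

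**Figure D2:**
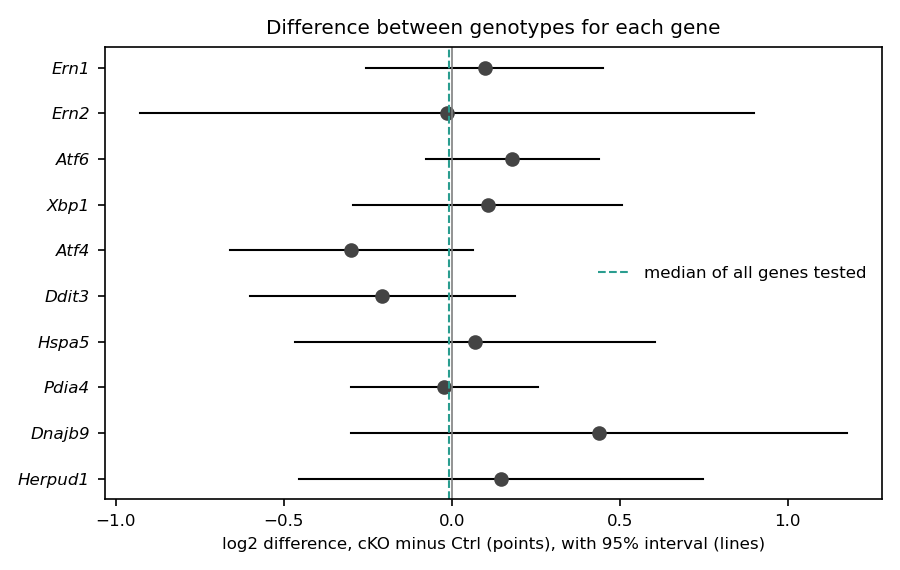
Log2 difference between cKO and Ctrl for each gene (points) with its 95% interval from limma (lines); the dashed line is the median of all genes tested, -0.0077. All 10 intervals include 0; the widest belong to Ern2 and Dnajb9 and the narrowest to Atf6 and Pdia4. The points of Ern2 and Pdia4 move above 0 after rescaling to a common FPKM sum, which moves the median of all genes to 0.070, or quantile normalization, and that of Ern2 also with values per recovered read.

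Among the sensors, Ern1, the IRE1 kinase and nuclease found in most tissues, stood at 4.84, 5.30 and 6.54 FPKM in Ctrl replicates 1 to 3. In cKO replicates 1 to 4 it stood at 6.33, 7.02, 5.73 and 4.88 FPKM. The ranges overlapped almost completely, with a log2 difference of 0.10 (SE 0.15, limma adjusted p = 0.878). Ern2, the IRE1 paralog of mucus-secreting cells, stood at 4.49, 2.65 and 6.88 FPKM in Ctrl and at 5.72, 7.29, 2.30 and 3.53 FPKM in cKO. Its highest and lowest values both lay in cKO, 3.17-fold apart, so that the group means, 4.68 ± 2.12 (SD, n = 3) and 4.71 ± 2.23 FPKM (SD, n = 4), say little of single libraries. The 95% interval of its log2 difference ran from -0.93 to 0.90 (limma adjusted p = 0.995), so the values allow differences of either sign. That interval is not a limit of detection. Goblet cell markers, summed over 10 genes, stood at 8049, 5447 and 8399.8 FPKM in Ctrl and at 7002, 7302, 4399 and 7359 FPKM in cKO, lowest in the 2 libraries with the lowest Ern2. In bulk epithelium, fewer cells of a type and less RNA per cell cannot be told apart.

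Atf6, which encodes the membrane-bound precursor of the ATF6 factor, was the sensor with the smallest spread. It stood at 5.62, 6.12 and 5.95 FPKM in Ctrl and at 6.65, 7.03, 7.50 and 5.89 FPKM in cKO. Replicates 1 to 3 of cKO lay above all Ctrl libraries and replicate 4 among them, with a log2 difference of 0.18 (SE 0.11, 95% interval -0.078 to 0.44, limma adjusted p = 0.666). Its standard deviation within groups, 0.11 on the log2 scale, was undercut by 9.74% of genes tested, whose median was 0.23.

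Of the transcription factors, Xbp1, whose spliced form drives chaperone and degradation genes, stood at 124, 88.4 and 81.9 FPKM in Ctrl and at 113, 115, 101 and 88.6 FPKM in cKO. The log2 difference was 0.11 (SE 0.17, limma adjusted p = 0.887) and turned to -0.011 without Ctrl replicate 3; the highest and the lowest library were both Ctrl. Unspliced and spliced Xbp1 are counted together in these values. Atf4, the effector of eIF2 phosphorylation, stood at 132, 129 and 115 FPKM in Ctrl and at 121, 106, 80.2 and 105 FPKM in cKO. Its log2 difference was -0.30 (SE 0.16, 95% interval -0.66 to 0.062), with a limma adjusted p of 0.613 that was the smallest of the 10 genes. The groups overlapped through Ctrl replicate 3 and cKO replicate 1. The difference lay below 0 under every alternative run, between -0.38 and -0.17, and was -0.18 without cKO replicate 3. Ddit3, which encodes the pro-apoptotic factor CHOP, stood at 9.12, 10.6 and 6.51 FPKM in Ctrl and at 6.75, 6.81, 8.61 and 7.41 FPKM in cKO. Its lowest library was Ctrl replicate 3, and the log2 difference was -0.21 (SE 0.17, adjusted p = 0.743), closer to 0 without Ctrl replicate 2 (-0.063) and further from it without Ctrl replicate 3 (-0.39). The ends of Ddit3 overlap Mbd6 and Mars1 on the opposite strand; Hspa5 likewise overlaps Rabepk (mean 2.02 FPKM), and the strand setting of the counting is unknown.

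Hspa5 encodes BiP, the main chaperone of the ER lumen and the protein that holds the sensors inactive. It stood at 179, 176 and 121 FPKM in Ctrl and at 167, 132, 232 and 141 FPKM in cKO, so the highest library was a cKO and the lowest a Ctrl. The log2 difference was 0.069 (SE 0.23, 95% interval -0.47 to 0.60, limma adjusted p = 0.947), and turned to -0.113 without Ctrl replicate 3 and to -0.097 without cKO replicate 3. Pdia4, a disulfide isomerase, was the steadiest of the folding genes, at 38.0, 32.9 and 31.8 FPKM in Ctrl and at 39.0, 32.3, 31.9 and 31.8 FPKM in cKO. Replicate 1 of each group stood above the others, and the group means of 34.2 ± 3.30 (SD, n = 3) and 33.7 ± 3.51 FPKM (SD, n = 4) differed by -0.022 on the log2 scale (95% interval -0.30 to 0.26, adjusted p = 0.969). Dnajb9, which encodes the BiP co-chaperone ERdj4, stood at 27.9, 39.0 and 17.2 FPKM in Ctrl and at 29.9, 30.0, 58.4 and 32.6 FPKM in cKO. It had the largest log2 difference, 0.44 (SE 0.32, adjusted p = 0.705), which was 0.13 without Ctrl replicate 3, the lowest library, 0.21 without cKO replicate 3, the highest, and 0.71 without Ctrl replicate 2.

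Herpud1, a membrane protein that organizes the ubiquitin ligase complex of ER-associated degradation, stood at 94.3, 125 and 69.9 FPKM in Ctrl and at 76.8, 90.5, 142 and 118 FPKM in cKO. The groups interleaved, with a log2 difference of 0.15 (SE 0.26, limma adjusted p = 0.898) that turned to -0.064 without Ctrl replicate 3 and to -0.0038 without cKO replicate 3. It was 0.35 without Ctrl replicate 2. Within groups, Ern2, Dnajb9, Herpud1 and Hspa5 had standard deviations of 0.64, 0.51, 0.40 and 0.34 on the log2 scale, larger than those of 92.3%, 87.8%, 81.0% and 74.1% of genes tested. The other 6 genes lay between 0.11 and 0.24.

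From library to library, Dnajb9 and Herpud1 tended to be high together and Ern2 low. The ties of Hspa5 to Dnajb9 and Herpud1 rested on 2 libraries. Dnajb9 and Herpud1 were highest in cKO replicate 3, next in Ctrl replicate 2, and lowest for both in Ctrl replicate 3 (scatter plots of these genes by library). Over the 7 libraries Dnajb9 and Herpud1 had a Pearson r of 0.89 (exact permutation p = 0.00298, adjusted p = 0.134 over the 45 pairs of the 10 genes) and a Spearman rho of 0.89 (exact p = 0.0123, adjusted p = 0.277). Without Ctrl replicate 3 and cKO replicate 3, the libraries farthest from the median of Dnajb9, r was 0.77. For deviations from the group means r was 0.91.

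Ern2 and Herpud1 ran opposite to each other, with r = -0.92 (exact permutation p = 0.00675, adjusted p = 0.143 over the 45 pairs) and rho = -0.89 (exact p = 0.0123, adjusted p = 0.277). Without Ctrl replicate 2 and cKO replicate 3 r was -0.79, and leaving out any 1 library kept r between -0.99 and -0.87. Ern2 and Dnajb9 had r = -0.82 (exact p = 0.00952, adjusted p = 0.143) and rho = -0.75 (exact p = 0.0663, adjusted p = 0.396), and r was -0.51 without the same 2 libraries. Hspa5 and Dnajb9 had r = 0.84 (exact p = 0.0230, adjusted p = 0.259) but rho = 0.54 (exact p = 0.236, adjusted p = 0.558). Leaving out any 1 library kept r between 0.65 and 0.90, and for deviations from the group means it was 0.88. Without both Ctrl replicate 3 and cKO replicate 3, r was 0.15, so that relation rested on these 2 libraries together. Likewise Hspa5 and Herpud1 had r = 0.67 (exact p = 0.0992, adjusted p = 0.411) and rho = 0.75 (exact p = 0.0663, adjusted p = 0.396), and r was 0.023 without the 2 libraries. Hspa5 and Ern2 had r = -0.78 (exact p = 0.0403, adjusted p = 0.302) and rho = -0.79 (exact p = 0.0480, adjusted p = 0.396). Their r was -0.49 without the same 2 libraries. Of the 45 pairs, 0 passed after adjustment and 6 had an unadjusted exact p under 0.05, so none of these relations is established by 7 libraries.

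**Figure D3:**
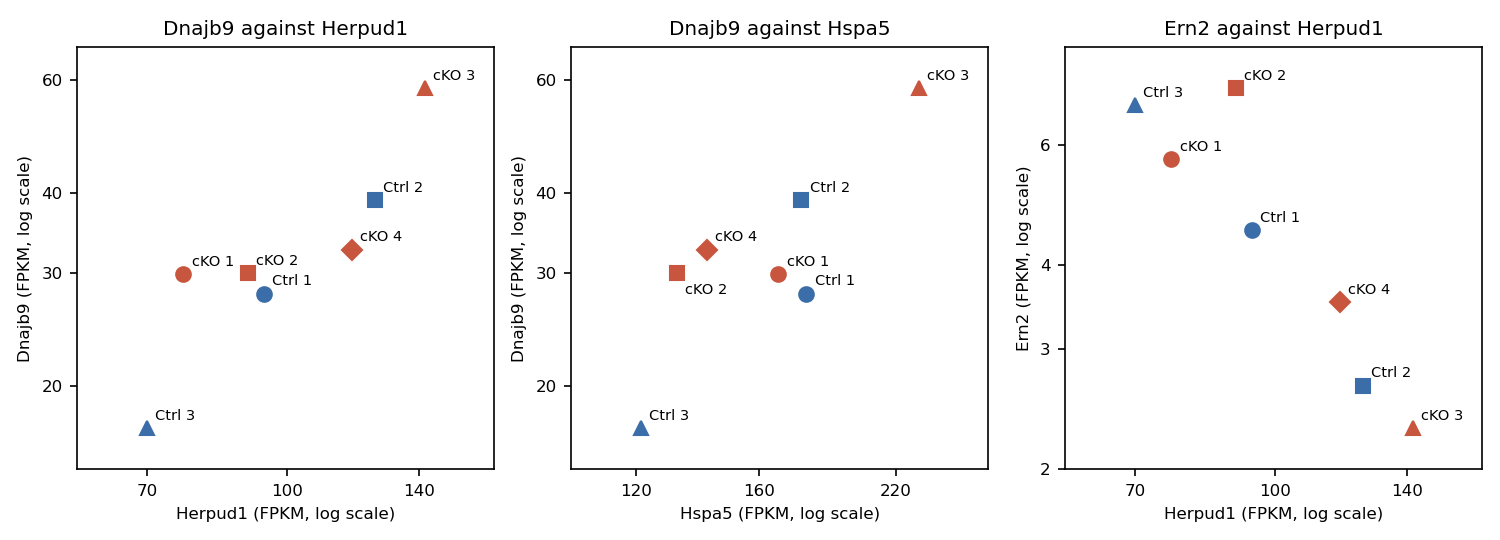
Dnajb9 against Herpud1 (left), Dnajb9 against Hspa5 (middle) and Ern2 against Herpud1 (right), in FPKM on log axes, 1 point per library, Ctrl in blue and cKO in red. Both groups lie along the same band in the left and right panels, with Ctrl replicate 3 and cKO replicate 3 at or near the ends (r = 0.89 and -0.92), while the middle relation rests on those same libraries.

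Xbp1 did not share this pattern. Its r was 0.31 with Hspa5, 0.16 with Dnajb9 and -0.13 with Herpud1, and its closest member was Pdia4 at 0.69 (exact permutation p = 0.119, adjusted p = 0.411; rho 0.57, exact p = 0.200, adjusted p = 0.558). Without Ctrl replicates 1 and 3 that r was 0.50. Ern1 and Ern2, the paralogous IRE1 genes, had r = 0.66 (exact p = 0.118, adjusted p = 0.411; rho 0.64, exact p = 0.139, adjusted p = 0.521), and 0.70 without Ctrl replicate 1 and cKO replicate 2. Atf4 and Ddit3, known to act in 1 branch, had r = 0.18 over all libraries (exact p = 0.720, adjusted p = 0.855; rho 0.29, exact p = 0.556, adjusted p = 0.945), and 0.63 without Ctrl replicate 1 and cKO replicate 3.

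**Figure D4:**
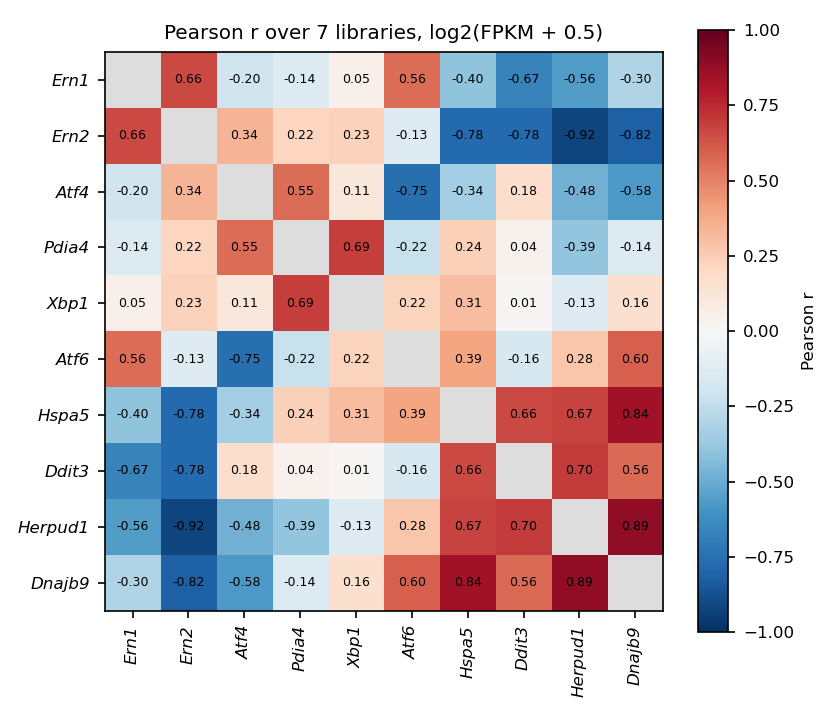
Pearson r between each pair of the 10 genes over 7 libraries (colour scale from -1 to 1, value in each cell). Hspa5, Ddit3, Herpud1 and Dnajb9 form a block of positive values from 0.56 to 0.89 and are all negative with Ern2, from -0.92 to -0.78; 0 of the 45 pairs passed an exact permutation test after adjustment.

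Markers of several cell types moved with this pattern, and their part in it was not tested. The goblet cell total had r = 0.81 with Ern2 and -0.91 with Dnajb9, and the Paneth cell total r = 0.70 with Ern2 and -0.79 with Herpud1. Goblet and Paneth cells were not alone in this: the enteroendocrine total had r = 0.73 with Ern2, -0.72 with Dnajb9 and -0.75 with Herpud1. The Paneth total stood at 13942, 22803.5 and 37312 FPKM in Ctrl and at 30925, 24577.5, 7322 and 7163 FPKM in cKO. All 10 goblet and all 11 Paneth markers had a mean of at least 0.5 FPKM. A list of 10 pancreatic acinar genes had r = 0.86 with Hspa5 and 0.89 with Dnajb9, but 6 of its genes, Prss1, Prss2, Cela2a, Cpa1, Pnlip and Amy2a2, were at 0 in all libraries, and its total followed Reg1, a lectin gene that intestinal epithelium also expresses, at 55.3 to 410.3 FPKM. Plasma and B cell markers, from cells rich in these chaperones, had r = 0.08 with Hspa5 and 0.60 with Herpud1. The 13 genes summed to 52.3 to 85.9 FPKM in Ctrl and to 67.9 to 179.6 FPKM in cKO. Of them 6 averaged at least 0.5 FPKM, the most abundant being Igkc at 44.4, Sdc1 at 28.3 and Igha at 16.0 FPKM. Tnfrsf17 was at 0 in all libraries and Mzb1 reached at most 0.912 FPKM. These r are descriptions over 7 libraries that share composition.

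The wider ER machinery, read from 9 lists that include the 10 genes where they belong, showed no called difference either. Over 175 tested genes of these lists 0 passed in limma, and 13, or 7.43%, had an unadjusted p under 0.05, against the 8.97% of all genes. Directions were mixed, 83 higher and 92 lower; the list medians lay on both sides of that of all genes. They did so too after rescaling to a common FPKM sum, at 0.0053 to 0.16 around the shifted median of 0.070 over all genes. In the values that follow, the Ctrl mean ± SD (n = 3) stands first and that of cKO (n = 4) second. Of 17 sensors and sensor-processing genes, 8 were higher and 9 lower, with a median log2 difference of -0.014. Those with the smallest p outside the 10 genes were the ATF6 paralog Atf6b, at 18.8 ± 1.46 and 15.6 ± 1.25 FPKM, the site-2 protease gene Mbtps2, at 1.94 ± 0.587 and 2.82 ± 0.412 FPKM, and Creb3l3, a related membrane-bound factor of enterocytes and liver, at 286 ± 40.2 and 225 ± 62.1 FPKM. Their limma adjusted p were 0.545, 0.554 and 0.646.

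Of 27 ER chaperones and folding enzymes, 12 were higher and 15 lower, with a median of -0.027. Groups were without overlap for 3 of them, Erp29, Erp44 and Ero1b, the last named after its values were seen (2.87 ± 0.301 and 3.96 ± 0.860 FPKM). Of all genes tested, 10.1% were without overlap. Erp29, a lumenal folding factor, stood at 57.3 ± 4.90 and 42.3 ± 4.65 FPKM (log2 difference -0.44, SE 0.12, limma adjusted p = 0.511). Erp44, which retrieves unassembled proteins from the Golgi, stood at 19.9 ± 2.56 and 26.1 ± 4.08 FPKM, and the oxidase gene Ero1a, whose groups overlapped, at 9.50 ± 1.95 and 12.6 ± 1.80 FPKM. Of 22 genes of ER-associated degradation, 12 were higher and 10 lower (median 0.010). The ubiquitin-conjugating enzyme gene Ube2g2 stood at 15.6 ± 1.52 and 11.6 ± 0.986 FPKM without overlap (log2 difference -0.42, adjusted p = 0.493), the lectin gene Os9 at 56.9 ± 6.64 and 42.9 ± 5.24 FPKM, and Ube2j1, which works with the same ligase as Herpud1, at 16.7 ± 0.339 and 20.1 ± 2.56 FPKM. None of these passed.

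For entry into the ER, 10 of 24 genes were higher and 14 lower (median -0.038); Ssr4 and Ssr2, subunits of the translocon-associated complex, stood at 123 ± 12.9 and 98.8 ± 6.87 FPKM and at 121 ± 10.7 and 104 ± 10.1 FPKM, and the translocation factor Sec62 at 19.1 ± 0.754 and 21.6 ± 1.66 FPKM. For the vesicle coat that exports cargo from the ER, 12 of 18 were higher and 6 lower (median 0.044), led by Sec24b at 8.65 ± 0.285 and 10.2 ± 0.716 FPKM, Sec24a at 17.1 ± 1.64 and 22.0 ± 4.18 FPKM and Sec23a at 63.8 ± 6.89 and 74.8 ± 15.5 FPKM. Their limma adjusted p lay between 0.542 for Ssr4 and 0.746 for Sec23a.

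On the PERK side, 9 of 14 genes for eIF2 kinases, eIF2 and its phosphatase and exchange factor were higher and 5 lower (median 0.078). Ppp1r15a, which encodes the stress-induced phosphatase subunit GADD34, stood at 1.57, 2.37 and 2.94 FPKM in Ctrl and at 1.59, 1.40, 1.24 and 1.66 FPKM in cKO (limma adjusted p = 0.542). Eif2s2 stood at 25.6 ± 0.814 and 30.3 ± 3.46 FPKM and the adaptor gene Nck1 at 4.95 ± 0.350 and 5.96 ± 0.655 FPKM. Targets of ATF4 and CHOP, a list that includes Atf4 and Ddit3 themselves, were lower in 22 of 32 tested genes and higher in 10. Over all genes tested, 6694 were lower and 6363 higher. The list's median was -0.063, against -0.0077 over all genes. After rescaling to a common FPKM sum it was 0.0053, against 0.070 over all genes. The list's median turned to 0.070 with array weights and to 0.030 without cKO replicate 3, where that of all genes was -0.0069 and -0.0026. Trib3, a pseudokinase induced by ATF4 and CHOP, stood at 13.7, 13.9 and 9.91 FPKM in Ctrl and at 9.03, 9.02, 8.80 and 9.49 FPKM in cKO. Its groups did not overlap, by a narrow margin between Ctrl replicate 3 and cKO replicate 4, and it did not pass (log2 difference -0.43, SE 0.13, limma adjusted p = 0.511). Besides the genes already pointed out, groups were also without overlap for Ssr4, Sec62, Sec24b and Eif2s2, and for Hsp90aa1, Yme1l1 and Clpx, described below. The share over all genes tested was 10.1%. Ddit4, an inhibitor of mTOR signalling, stood at 21.0 ± 6.30 and 13.7 ± 2.13 FPKM, and Shmt2, of mitochondrial one-carbon metabolism, at 19.7 ± 2.12 and 15.9 ± 4.95 FPKM.

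Folding systems outside the ER were also without a called gene. Of 12 cytosolic heat shock genes 6 were higher and 6 lower (median -0.015), with Hsp90aa1 at 80.1 ± 8.98 and 98.7 ± 7.57 FPKM, Ahsa1 at 46.6 ± 5.56 and 38.3 ± 7.0 FPKM and Dnajb1 at 18.9 ± 1.99 and 15.7 ± 2.61 FPKM. Of 10 mitochondrial folding and protease genes 5 were higher and 5 lower (median -0.0038), with the protease gene Yme1l1 at 16.8 ± 2.61 and 22.6 ± 2.89 FPKM, Clpx at 14.0 ± 0.417 and 16.2 ± 1.07 FPKM and the co-chaperonin gene Hspe1 at 138 ± 24.4 and 109.9 ± 14.4 FPKM. The limma adjusted p of these 6 genes lay between 0.516 and 0.629.

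**Figure D5:**
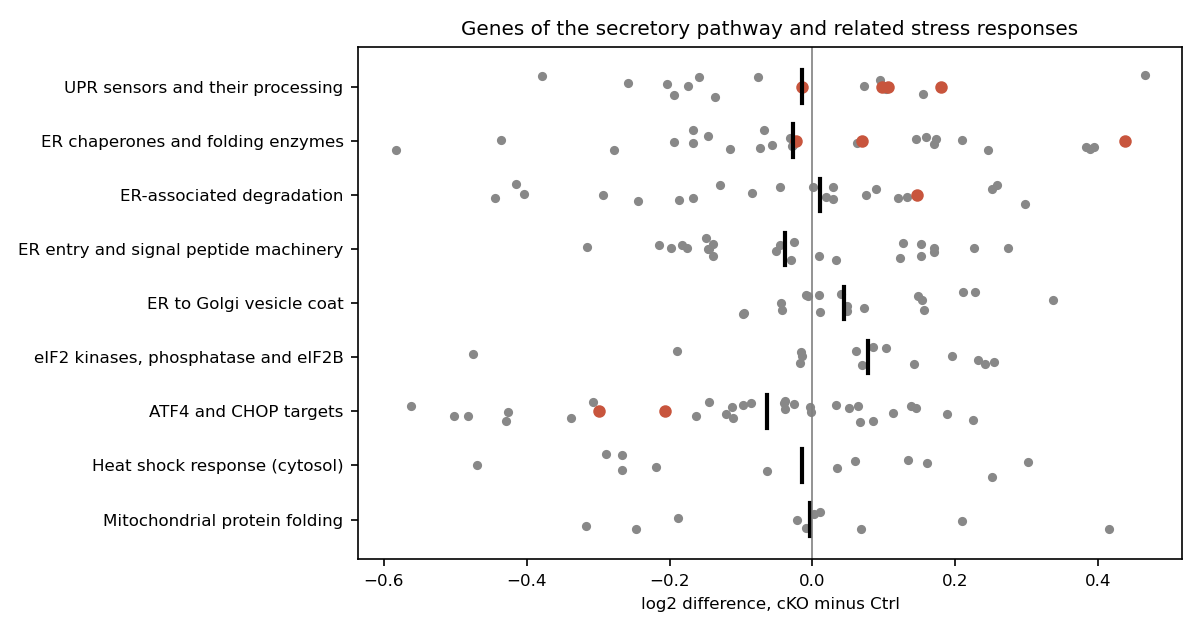
Log2 difference between cKO and Ctrl (horizontal axis) of each tested gene in 9 lists, with the 10 unfolded protein response genes in red, the other genes in grey and the median of each list as a black bar. Medians lie between -0.063 and 0.078, and 0 of the 175 genes passed; after rescaling to a common FPKM sum they lie between 0.0053 and 0.16, around a median of all genes shifted to 0.070.

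Variation shared with Hspa5 from library to library differed between the lists. The r given here with Hspa5 were not recomputed without Ctrl replicate 3 and cKO replicate 3. The ties of Hspa5 to Dnajb9 and Herpud1 rested on those libraries. For list genes averaging 5 FPKM or more, the 10 left out, the median r with Hspa5 over the 7 libraries was 0.58 for 21 chaperones and folding enzymes, 0.51 for 19 genes of ER-associated degradation, 0.62 for 23 of ER entry and 0.62 for 18 of the vesicle coat, beside 0.038 over all 7055 genes compared. Hsp90b1, the ER member of the HSP90 family, had r = 0.86, Derl1, a channel of ER-associated degradation, r = 0.85, the signal peptidase subunit gene Sec11c r = 0.88 and the cargo receptor gene Lman1 r = 0.91. The median r was 0.0053 for 11 sensors and sensor-processing genes and 0.083 for 11 eIF2 genes. Outside the ER it was 0.31 for 11 cytosolic heat shock genes, 3 of which exceeded 0.8 (Hsph1, a cytosolic chaperone, at 0.90), -0.44 for 10 mitochondrial folding genes and -0.50 for 22 targets of ATF4 and CHOP, so high values were neither general among the ER lists nor particular to them. The ranking of all genes placed Dpagt1, whose enzyme starts N-glycan assembly on the ER membrane, first with r = 0.985, then Mettl23 (0.97), Scamp1 (0.96), Fam122a (0.94) and Mtres1 (0.94); Dnajb9 was at rank 80 and Herpud1 at rank 401. For Xbp1 the 5 closest genes were Pdk1 (0.96), Rps7 (0.96), Selenoo (0.95), Mtmr14 (0.95) and Hmgn2 (0.95), and Hspa5 was at rank 1734.

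Ern2 varied with another set. The r given here with Ern2 were not recomputed without Ctrl replicate 2 and cKO replicate 3, the libraries with the lowest Ern2. Without them the r of Ern2 with Dnajb9 went from -0.82 to -0.51. The median r of Ern2 was 0.75 with the 22 targets of ATF4 and CHOP. Of these, 10 exceeded 0.8, a level that 3.83% of 7056 genes reached. It was 0.71 with 10 mitochondrial folding genes and -0.78 with the 18 vesicle coat genes, beside -0.13 over all genes. Mthfd2, an ATF4 target of one-carbon metabolism, had r = 0.94 with Ern2, and the mitochondrial chaperone gene Hspa9 r = 0.90. The median r of Atf4 itself with its 22 listed targets was 0.44, beside 0.063 over all genes. These values rank genes over 7 libraries that share depth and composition, and each list's genes are not independent of one another.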

How the data were processed

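RNA-seq values of 3 Ctrl and 4 cKO libraries were read from 1 deposited table, which gives FPKM per gene, made by the authors; reads had been aligned with HISAT2 per the submitters' processing notes. Version, counting program, strand use and annotation release: not given in the sources used here. Replicate numbers follow the sample titles. The deposited column names carry other numbers in the same order, except that Ctrl replicate 1 keeps its number. Chromosome accessions are those of GRCm39. Reads were recovered from FPKM and gene length, with 100% of values above 0 whole within 0.01 of a read. Genes averaging 0.5 FPKM or more were tested on log2(FPKM + 0.5) with limma 3.58.1 in R 4.3.3 (lmFit, eBayes with trend, 2-sided, Benjamini-Hochberg, threshold 0.05), without covariates; the scale understates changes of low genes. The script was tested on simulated data. Correlations used Pearson's r and Spearman's rho with exact tests over 5040 permutations. Of 319 listed symbols 1 was not matched and 6 were matched through a RefSeq synonym. The named genes were the 10 genes, Stk24, the 3 of smallest p with a mean of at least 1 FPKM in each list, and the 5 most like Hspa5 and Xbp1; genes named beside a list's median r were chosen after their values were seen. The genes and lists were chosen with earlier results of these data known. Alternatives are given in the closing section.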

Additional observations from a re-analysis of the deposited data

Results flagged for a closer look

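In the group of 4 cKO libraries, a library stood apart from the others for 2 of the 10 genes by Dixon's criterion, which chance meets in about 1 in 20 groups. Dnajb9 stood at 58.4 FPKM in cKO replicate 3, where the other cKO libraries lay between 29.9 and 32.6 FPKM, and the gap was 0.903 of the group's range. Pdia4 stood at 39.0 FPKM in cKO replicate 1, where the others lay between 31.8 and 32.3 FPKM, and the gap was 0.932 of the range.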

How the results depend on the processing

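None of the 10 genes passed in limma under any of the 19 alternatives run, against 4 genes called over the whole table. That count was 1 with a pseudocount of 0.1, with no filter, with a mean of at least 1 FPKM and after removal of the gene length trend, 0 with the replicate number as a block, 7 without cKO replicate 1, 2 without Ctrl replicate 1 and 1 without any of the other libraries. The median difference of the 10 genes ranged from -0.038, without Ctrl replicate 3, to 0.11 with single libraries left out, and between 0.062 and 0.17 otherwise. Ern1, Atf4, Atf6, Ddit3 and Dnajb9 kept their sign throughout. Array weights turned Hspa5 to -0.085, Herpud1 to -0.11 and Ern2 to 0.43. Ern2 was also above 0 with TPM (0.067), quantile normalization (0.0018), FPKM per recovered read (0.0018), voom on recovered reads (0.017) and the replicate block (0.074). Pdia4 was above 0 with TPM (0.065), quantile normalization (0.058), the gene length trend removed (0.013) and the replicate block (0.0041). Leaving out 1 library, differences ranged from -0.011 to 0.29 for Xbp1, -0.11 to 0.17 for Hspa5, -0.33 to 0.28 for Ern2, -0.064 to 0.35 for Herpud1 and -0.093 to 0.054 for Pdia4. The cause of these shifts was not tested. With the replicate block, which uses 6 libraries, the adjusted p of Stk24 was 0.127 at a difference of -2.44. Deviations of same-numbered libraries correlated at 0.115, -0.087 and -0.129 over genes, and only Ctrl replicate 1 correlated best with its own number. These values gave no sign that replicate numbers pair the samples. They cannot exclude it, since paired samples need not share deviations. Ern2, with as few as 104 reads in a library, carries the largest counting error of the 10 genes.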
